A study of Gallus gallus with 6 samples.

Results

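The HOX genes of the chicken are described here in primary cells from embryonic skeletal muscle, sequenced as dividing myoblasts and as differentiated myotubes. They were chosen by name, as every entry of the deposited gene tables whose symbol begins with HOX followed by a cluster letter A to D and a number. This gave 32 of 26591 gene entries, with 9 HOXA, 8 HOXB, 7 HOXC and 8 HOXD genes. The rule reads names only. Each state had 3 RNA libraries, all from cells at passage 1. The basal medium was RPMI-1640 throughout. Dividing cells had 15% fetal bovine serum, whereas the myotubes had 2% horse serum, so that the kind and amount of serum changed together with the state of the cells and the effects of these cannot be told apart. Penicillin and streptomycin at 2% and Trizol extraction were common to both states. The labels name no strain, age of the embryos or genetic change for either state.

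HOX genes encode transcription factors with a homeodomain, the part of the protein that binds DNA. They lie in clusters, and members are numbered by their place in the cluster: low numbers sit at the 3′ end and are active towards the head, high numbers sit at the 5′ end and are active towards the tail and in the outer limb. Cells taken from an embryo often keep the set of HOX genes of the place they came from, and in the limb the HOXA and HOXD genes of high number pattern the skeleton and the muscle connective tissue. Genes of equal number in different clusters, called paralogues, descend from one ancestral gene.

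The libraries held 21893152 to 27546527 counted reads in all, of which 2589 to 2999 in myoblasts and 4814 to 5972 in myotubes were assigned to HOX genes. Muscle identity was checked with 13 marker genes, of which 12 had an entry and none was at 0. Their summed level was 2877 to 5369 FPKM (fragments scaled by gene length and by library total) in myoblast libraries and 1744 to 1833 FPKM in myotube libraries. Of them 6 fell, 1 rose and 5 had no call, where 29.1% of all genes tested fell and 30.0% rose. The desmin gene DES fell from 811 to 142 FPKM, and MYOG, which drives differentiation, averaged 367 FPKM in myoblasts and 300 FPKM in myotubes with no call, so most muscle markers were not higher in the libraries labelled myotube. Myoblast replicate 3 stood apart from the other myoblast libraries, with the 5369 FPKM of muscle markers against 2998 and 2877 FPKM, and the count of called HOX genes was repeated without it.

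Most HOX genes stood higher in myotubes. By edgeR's quasi-likelihood test at a Benjamini-Hochberg adjusted p under 0.05, 21 of the 32 rose, 2 fell, HOXA13 among them, and 3 had no call (HOXB7, HOXB9 and HOXC11), while 6 had too few reads to be tested. Over all 15959 genes tested, 30.0% rose and 29.1% fell. Of the 26 tested HOX genes, 11 (HOXB4, HOXB5, HOXB6, HOXB7, HOXC8, HOXD3, HOXD9, HOXD10, HOXD11, HOXD12 and HOXD13) passed the filter on low counts through the myotube libraries, so that a difference was built into their being tested. Of the 15 HOX genes over the filter in all 6 libraries, 11 rose, 2 fell and HOXB9 and HOXC11 had no call, where 30.3% of the 14254 genes of that kind rose and 28.4% fell. Their median log2 change was 1.03, against 0.01 for those genes. A split by mean level over both groups was also made, and of the 17 HOX genes with a mean of at least 1 CPM (a read count scaled to a common library total) over all 6 libraries, 14 rose, 2 fell and HOXB9 had no call. Their median log2 change was 1.06, and among all 14266 genes at that level 31.2% rose, 29.5% fell and the median log2 change was 0.01. The 17 include HOXB6, HOXC8 and HOXD13, which are among the 11 named above, and the level of 1 CPM was chosen after the values were seen.

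In FPKM, the myotube libraries lay wholly above the myoblast libraries for 22 HOX genes and wholly below them for 3, against 24.4% and 28.7% of the entries with any read. Without myoblast replicate 3 the counts were again 21 higher and 2 lower. The labels do not state whether replicates are separate cultures or embryos. The p-values therefore measure only the spread between these libraries, which may be technical. In RNA from whole cultures, a change in the number of cells that use a gene and a change in RNA per cell cannot be told apart.

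**Figure D1:**
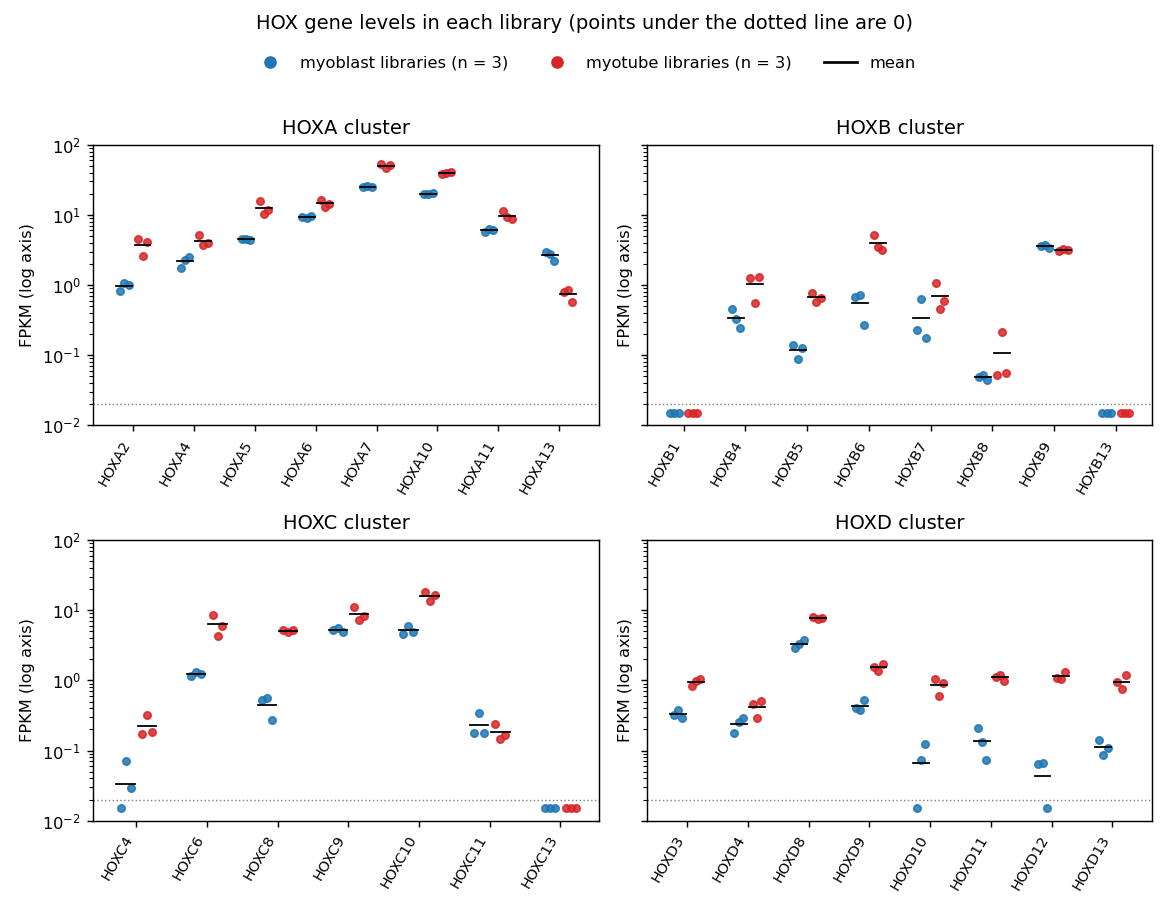
FPKM (log axis) of the HOX genes described in the text, one panel per cluster, with a point for each of the 3 myoblast and 3 myotube libraries and a bar at the group mean; values of 0 are drawn under the dotted line. HOXA7 and HOXA10 stand highest in both states, HOXA13 is lower in myotubes, and HOXD9 to HOXD13 separate the states without overlap.

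The HOXA cluster lay on the minus strand of chromosome 2, from HOXA2 at 32640373 to HOXA13 at 32739767, in the coordinates of the authors' tables, for which no genome build is named. It held the HOX genes with the most RNA. HOXA7 (chromosome 2, 32692561 to 32694926), a gene of the trunk, had 24.6, 25.5 and 24.8 FPKM in the myoblast libraries and 53.1, 46.3 and 51.3 FPKM in the myotube libraries. The groups did not overlap, and the mean rose from 25.0 ± 0.47 to 50.2 ± 3.52 FPKM (SD, n = 3 each). On the log2 scale it changed by 1.06 ± 0.09 (SE; edgeR adjusted p = 3.02e-05). HOXA10 (32709871 to 32712313), which in the mouse patterns the lumbar spine and the upper hindlimb, had 20.02, 19.8 and 20.5 FPKM in myoblasts and 38.8, 39.6 and 40.6 FPKM in myotubes. Its log2 change was 1.03 ± 0.08 (edgeR adjusted p = 2.43e-05), again with no overlap. Averaged over the 6 libraries, HOXA7 stood above 78.2% and HOXA10 above 73.0% of the genes with a symbol and a level above 0. HOXA7 had 619 to 716 reads and HOXA10 502 to 619 reads per myoblast library, the deepest counts among the entries named HOX. An entry without a symbol between them, ENSGALG00000028983, had more, at 979 to 1193 reads per myoblast library.

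The middle of the HOXA cluster moved in the same direction by differing amounts. HOXA6, which followed HOXA10 in level over all libraries, had 9.23, 8.93 and 9.74 FPKM in myoblasts and 16.6, 12.8 and 14.4 FPKM in myotubes, a log2 change of 0.70 ± 0.15 (edgeR adjusted p = 0.00396). HOXA5, which in the mouse acts in the neck vertebrae and the lung, had 4.58, 4.56 and 4.41 FPKM in myoblasts and 15.6, 10.4 and 11.8 FPKM in myotubes, a log2 change of 1.54 ± 0.17. HOXA4 had 1.75, 2.26 and 2.54 FPKM in myoblasts and 5.16, 3.73 and 4.04 FPKM in myotubes. These 3 neighbours rose with no overlap between the states. The HOXA4 entry (log2 change 1.03 ± 0.21) overlaps those of HOXA5, HOXA6 and an unnamed gene on the same strand. Both HOXA5 and HOXA6 lie wholly inside the HOXA4 entry. Reads in the shared stretches cannot be given to one gene with certainty, which limits the values of HOXA4, HOXA5 and HOXA6. HOXA2, a gene of the hindbrain, had 0.815, 1.07 and 1.00 FPKM in myoblasts and 4.503, 2.58 and 4.14 FPKM in myotubes. Its log2 change of 2.01 ± 0.28 was the largest rise among the entries named HOXA. HOXA11, which in the mouse is needed for the forearm and shank, had 5.72, 6.30 and 6.16 FPKM in myoblasts and 11.4, 9.25 and 8.73 FPKM in myotubes, a log2 change of 0.75 ± 0.13.

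HOXA13 went the other way, in the fit reported here and in each of the 6 fits that left out one library. The gene (32738288 to 32739767), at the 5′ end of the cluster, marks the hand and foot plate of the limb bud. It had 2.99, 2.73 and 2.22 FPKM in myoblasts and 0.792, 0.859 and 0.567 FPKM in myotubes. All 3 myotube libraries lay below all 3 myoblast libraries, and the mean fell from 2.64 ± 0.39 to 0.74 ± 0.15 FPKM, a log2 change of -1.77 ± 0.25 (edgeR adjusted p = 0.000509). This fall rests on fewer reads than the change of HOXA7, 191 in all in myoblasts and 49 in myotubes.

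The HOXB cluster lay on the plus strand of chromosome 27, from 3743555 to 3882191, and its genes were low in both states. HOXB9, a gene of the thoracic trunk, was the highest of them over all 6 libraries and had no call. It had 3.61, 3.71 and 3.37 FPKM in myoblasts and 3.03, 3.29 and 3.13 FPKM in myotubes. The libraries did not overlap, but the log2 change of -0.12 ± 0.18 was within its error (edgeR adjusted p = 0.581). HOXB6 had 0.669, 0.710 and 0.271 FPKM in myoblasts and 5.08, 3.53 and 3.21 FPKM in myotubes, a log2 change of 2.91 ± 0.37. It lay below HOXB9 in every myoblast library, and in myotubes its mean of 3.94 FPKM was above the 3.15 FPKM of HOXB9, with ranges that met.

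HOXB5, HOXB4 and HOXB7 could be tested at levels near or below 1 FPKM. HOXB5 had 0.141, 0.0896 and 0.126 FPKM in myoblasts and 0.765, 0.575 and 0.664 FPKM in myotubes, a log2 change of 2.50 ± 0.34. HOXB4, known from blood stem cells, had 0.450, 0.330 and 0.247 FPKM in myoblasts and 1.27, 0.557 and 1.32 FPKM in myotubes, a log2 change of 1.67 ± 0.42. Both rose without overlap. HOXB7 had 0.225, 0.627 and 0.176 FPKM in myoblasts and 1.06, 0.454 and 0.601 FPKM in myotubes, which overlap through myoblast replicate 2. Its log2 change of 1.13 ± 0.52 had no call (edgeR adjusted p = 0.0935), and without myoblast replicate 2 it was 1.85 (edgeR adjusted p = 0.0172). IGF2BP1, on the opposite strand, spans the whole HOXB cluster and fell from 51.4 ± 6.67 to 27.3 ± 1.94 FPKM, a log2 change of -0.85 ± 0.11. No source used here gives the strand setting of the counting, so it is not known whether reads of such opposed genes were kept apart. Within the same span, HOXB1 and HOXB13 had 0 reads in every library. How far reads of IGF2BP1 enter the HOXB counts was not tested.

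The HOXC cluster lay on the plus strand of chromosome 33, from 972488 to 1096547. HOXC10, which in the chick marks the hindlimb and the lumbar trunk, was its highest gene over all 6 libraries, while in myoblasts HOXC9 had the higher mean, with ranges that overlapped. HOXC10 had 4.61, 5.99 and 4.89 FPKM in myoblasts and 17.9, 13.5 and 16.6 FPKM in myotubes. Its mean rose from 5.16 ± 0.73 to 16.0 ± 2.29 FPKM, a log2 change of 1.69 ± 0.15 (edgeR adjusted p = 4.72e-05), with no overlap. HOXC8 (1045438 to 1048859), a gene of the thoracic trunk, went from low to clearly measured: 0.525, 0.557 and 0.271 FPKM in myoblasts and 5.20, 4.83 and 5.21 FPKM in myotubes. The myotube libraries agree within a narrow range, and the log2 change was 3.56 ± 0.25 (edgeR adjusted p = 1.44e-05), an 11.8-fold rise from 49 reads in all to 511.

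The neighbours of HOXC8 rose less. HOXC8 passed the filter on low counts through the myotube libraries, whereas HOXC6 and HOXC9 passed it in every library. Their sizes are therefore not compared on equal terms. HOXC6 had 1.14, 1.33 and 1.22 FPKM in myoblasts and 8.63, 4.34 and 6.01 FPKM in myotubes, a log2 change of 2.42 ± 0.30. HOXC9 had 5.24, 5.67 and 4.95 FPKM in myoblasts and 11.1, 7.21 and 8.39 FPKM in myotubes, a log2 change of 0.81 ± 0.20. In both, myotube replicate 1 was the highest library and replicate 2 the lowest of its group, and neither overlapped the myoblasts. HOXC11, a hindlimb gene, had 0.178, 0.344 and 0.178 FPKM in myoblasts and 0.241, 0.146 and 0.165 FPKM in myotubes. The states overlapped, and the log2 change of -0.27 ± 0.37 had no call (edgeR adjusted p = 0.558).

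The HOXD cluster, on the minus strand of chromosome 7 from 16326992 to 16392023, held the largest changes at its 5′ end, where the genes of the outer limb lie. HOXD9 to HOXD13 passed the filter on low counts through the myotube libraries, so a difference was built into their being tested. HOXD12 (16383786 to 16385462) had 0.0633, 0.0671 and 0 FPKM in myoblasts and 1.09, 1.05 and 1.31 FPKM in myotubes. Myoblasts gave 4 reads in all and myotubes 101, a ratio of 27.8 per read counted (95% exact binomial interval 10.5 to 104, counting error only). The log2 change was 4.72 ± 0.51 (edgeR adjusted p = 0.000124) and was 4.13 without myoblast replicate 3, the library with no read. HOXD10 (16367140 to 16369673) had 0, 0.0734 and 0.123 FPKM in myoblasts and 1.05, 0.594 and 0.931 FPKM in myotubes, from 6 and 69 reads. Its log2 change was 3.64 ± 0.60 (edgeR adjusted p = 0.00106) and was 4.49 without myoblast replicate 3, its highest myoblast library.

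HOXD13 (16389450 to 16392023), the last gene of the cluster and needed for the digits, moved against its paralogue HOXA13. It had 0.143, 0.0869 and 0.110 FPKM in myoblasts and 0.941, 0.747 and 1.19 FPKM in myotubes, with no overlap and a log2 change of 3.11 ± 0.33 (edgeR adjusted p = 0.000116). HOXA13 stood above HOXD13 in every myoblast library, at 2.22 FPKM or more against 0.143 or less, whereas in myotubes their ranges met (0.567 to 0.859 and 0.747 to 1.19 FPKM). HOXD11 had 0.207, 0.132 and 0.0739 FPKM in myoblasts and 1.13, 1.20 and 0.977 FPKM in myotubes, a log2 change of 3.03 ± 0.38. HOXD9 had 0.403, 0.380 and 0.519 FPKM in myoblasts and 1.54, 1.35 and 1.71 FPKM in myotubes, a log2 change of 1.85 ± 0.28. None of these genes overlapped between the states, and in myotubes HOXD10 to HOXD13 all averaged near 1 FPKM.

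Towards the 3′ end the HOXD changes were smaller. HOXD8 passed the filter in every library and HOXD3 through the myotube libraries, so sizes along the cluster are not compared on equal terms. HOXD8, the highest HOXD gene, had 2.91, 3.26 and 3.80 FPKM in myoblasts and 8.11, 7.49 and 7.75 FPKM in myotubes. Its mean rose from 3.32 ± 0.45 to 7.78 ± 0.31 FPKM, a log2 change of 1.28 ± 0.16 (edgeR adjusted p = 0.000222). HOXD3 had 0.323, 0.374 and 0.288 FPKM in myoblasts and 0.829, 0.978 and 1.06 FPKM in myotubes, a log2 change of 1.59 ± 0.26. Both separated the states.

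The 6 HOX genes that were not tested were near or at the limit of detection. HOXB1, of the hindbrain, and HOXB13 and HOXC13, the last genes of their clusters, had 0 reads in every library. At 3 reads per library, 0 reads allow up to 0.0670 FPKM for HOXB1, 0.163 FPKM for HOXB13 and 0.136 FPKM for HOXC13 in the shallowest library, covering counting error only. HOXB8 had 1 to 4 reads per library, HOXC4 had 0 to 2 in myoblasts and 5 to 9 in myotubes, and HOXD4 had 6 to 11 in myoblasts and 9 to 15 in myotubes. With no filter on low counts HOXC4 was called higher (log2 change 2.70, edgeR adjusted p = 0.0247), in a fit where 21.9% of 22246 genes were called higher.

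**Figure D2:**
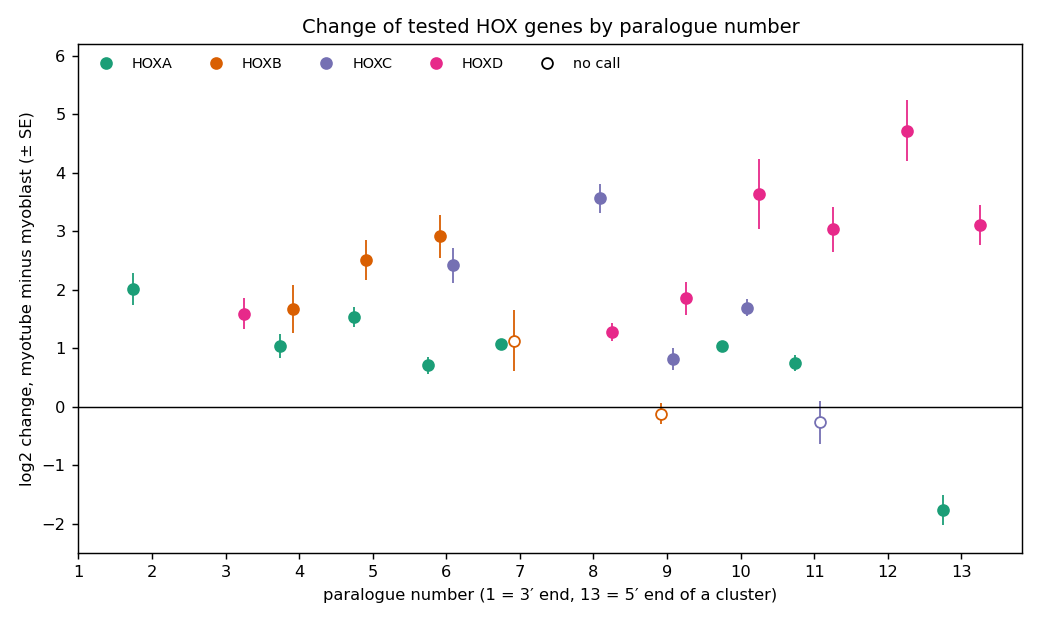
Log2 change (myotube minus myoblast, ± SE) of the tested HOX genes described in the text against paralogue number, coloured by cluster, with open points for genes without a call. The called gene under 0 is HOXA13, and the highest point is HOXD12 at 4.72.

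Paralogues of the same number did not share one size of change. Number 10 ran from 1.03 (HOXA10) through 1.69 (HOXC10) to 3.64 (HOXD10) on the log2 scale, number 11 from -0.27 (HOXC11) to 3.03 (HOXD11), and number 13 from -1.77 (HOXA13) to 3.11 (HOXD13). The HOXD genes at the upper ends passed the filter through the myotube libraries, the others named here in all 6. These sizes are therefore not compared on equal terms. Of the genes that passed in all 6 libraries, number 10 had 1.03 and 1.69, and number 11 had 0.75 (HOXA11) and -0.27. By cluster, 7 of 9 tested HOXA genes, 3 of 5 tested HOXB genes, 4 of 5 tested HOXC genes and 7 of 7 tested HOXD genes rose, where 30.0% of all genes tested did. Among genes over the filter in all 6 libraries these counts were 7 of 9, 0 of 1, 3 of 4 and 1 of 1, so the HOXB and HOXD counts rest almost wholly on genes that passed through the myotube libraries. Differences between clusters were not tested.

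In summed level, all HOX genes together had 92.7, 97.4 and 94.9 FPKM in the myoblast libraries and 216, 179 and 197 FPKM in the myotube libraries. The sum rose from 94.97 ± 2.35 to 198 ± 18.4 FPKM (SD, n = 3 each) with no overlap, and it carries no p since it is a score over the members. HOXA rose from 72.9 ± 1.19 to 136 ± 9.86 FPKM and HOXB from 4.97 ± 0.66 to 9.62 ± 1.43 FPKM, ratios of 1.87 and 1.94. HOXC rose from 12.4 ± 1.36 to 36.7 ± 6.48 FPKM and HOXD from 4.69 ± 0.49 to 14.8 ± 0.93 FPKM, ratios of 2.97 and 3.15. HOXA therefore held 76.8 ± 1.40% of HOX FPKM in myoblasts and 69.2 ± 1.45% in myotubes, and HOXC 13.04 ± 1.15% and 18.5 ± 1.56%. HOXA7 and HOXA10 alone made up 47.5 ± 0.86% and 45.7 ± 2.82% of the FPKM of the entries named HOX.

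**Figure D3:**
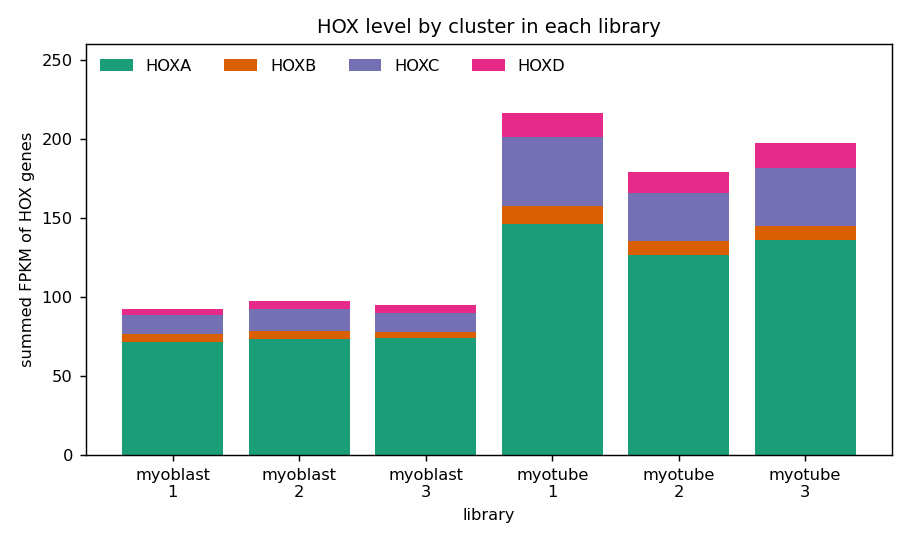
Summed FPKM of the HOX genes in each library, stacked by cluster. The myoblast libraries reach 92.7 to 97.4 FPKM and the myotube libraries 179 to 216 FPKM, with HOXA the largest block in every library.

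The order of the genes by level was similar in the 2 states at its top and changed below it. In myoblasts HOXA7 led, then HOXA10, HOXA6 and HOXA11, and no library range of these 4 met that of the next gene in order. HOXA11 did overlap HOXC10, which lay further down by its mean but had 5.99 FPKM in myoblast replicate 2, against a lowest HOXA11 value of 5.72 FPKM. HOXC9 and HOXC10 overlapped each other, as did HOXB9, HOXD8 and HOXA13 each with the next in order. In myotubes HOXA7 and HOXA10 again led without overlap, but from HOXC10 at rank 3 down to HOXA2 at rank 13 each gene overlapped the next. The size of the lead of HOXA7 depends partly on length, since its FPKM implies 1048 bases where the table lists 1256, while HOXA10 has 1095 in both. HOXA7 also had more reads in all than HOXA10, 1969 against 1660 in myoblasts and 3595 against 2964 in myotubes. A mean of at least 1 FPKM was reached by 13 HOX genes in myoblasts and 18 in myotubes, and at least 10 FPKM by 2 and 5. Across the 29 HOX genes with any read, mean FPKM in the 2 states had a Spearman's rho of 0.82, a description across genes that share their libraries.

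The tables list 23 entries without a symbol within the cluster boundaries. Of these 10 could be tested, and 8 rose, 0 fell and 2 had no call, where 30.0% of all genes tested rose and 29.1% fell. Over the filter in all 6 libraries were 9 of them, of which 7 rose. At an unadjusted p under 0.05 in edgeR, and by DESeq2, the number lower was also 0. ENSGALG00000027925, which lies between HOXA2 and HOXA6 and overlaps HOXA4 and HOXA5, rose from 1.54 ± 0.13 to 6.09 ± 0.53 FPKM, a log2 change of 2.04 ± 0.14. ENSGALG00000028983, between HOXA7 and HOXA10, rose from 25.7 ± 1.23 to 32.5 ± 4.504 FPKM, a log2 change of 0.40 ± 0.12, less than either neighbour. Its myoblast mean was near the 25.0 FPKM of HOXA7. Whether it is a HOX gene was not tested, and the orders, sums and shares given here cover named HOX entries only. Of the 24 genes with a symbol that flank the clusters (3 on each side), 20 were tested, and 5 rose, 8 fell and 7 had no call. EVX1 and EVX2, homeobox genes beside HOXA13 and HOXD13, were near 0, EVX2 at 0 in myoblasts and 0.101 FPKM in myotubes. The nearest genes with a symbol on the other sides of HOXD and HOXA were MTX2, with a log2 change of 0.22 ± 0.08, and SKAP2, with 0.41 ± 0.10. SNX10, beyond SKAP2, had -0.82 ± 0.09.

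HOX proteins bind DNA together with TALE homeodomain proteins, above all those of the PBX and MEIS families. Of 8 tested TALE genes, 4 rose, 2 fell and 2 had no call, where 30.0% of all genes tested rose and 29.1% fell. These shares stand beside each list that follows. The list had a median log2 change of 0.46 against 0.00 over all genes tested. MEIS2 rose from 7.61 ± 0.46 to 34.4 ± 4.84 FPKM, a log2 change of 2.23 ± 0.13. MEIS1 rose from 11.4 ± 0.17 to 25.8 ± 1.38 FPKM, a log2 change of 1.24 ± 0.10. PBX3 rose from 13.1 ± 0.61 to 19.4 ± 0.74 FPKM (0.62 ± 0.08). The genes that fell were PKNOX1, a MEIS relative, from 25.1 ± 0.99 to 11.7 ± 1.64 FPKM (-1.05 ± 0.11), and TGIF1, a repressor, by a log2 change of -0.35 ± 0.13 that lost its call without myoblast replicates 1 or 3 or myotube replicates 2 or 3, each left out alone, which leaves 1 gene lower.

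Polycomb and trithorax proteins hold HOX clusters silent or active. For the Polycomb complex PRC2, which writes the H3K27 methyl mark, 2 of 10 tested genes rose, 3 fell and 5 had no call (median log2 change -0.17). SUZ12, a core subunit, fell from 22.1 ± 2.39 to 12.3 ± 1.22 FPKM (-0.79 ± 0.10), and EZH2, the enzyme, fell from 29.7 ± 5.87 to 21.5 ± 1.25 FPKM (-0.41 ± 0.13). The accessory PHF19 rose from 13.9 ± 2.35 to 34.1 ± 1.63 FPKM (1.35 ± 0.12). The core subunit EED had no call at 19.0 ± 2.88 and 18.5 ± 1.02 FPKM, so the subunits did not move together. The other calls were EZH1, with a log2 change of 0.32, and LCOR, with -0.41. EZH2 lost its call when any one library other than myoblast replicate 3 was left out (highest adjusted p = 0.0798 by edgeR). Without myoblast replicate 3, 5 PRC2 genes fell, and without myoblast replicate 1 or myotube replicate 1 or 3 the number was 1. The number that rose was 1 without myoblast replicate 1 or myotube replicate 2 or 3.

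For PRC1, some forms of which bind the mark and compact the clusters, 3 of 14 tested genes rose, 6 fell and 5 had no call (median -0.19). The list does not separate these forms from others. PCGF5 fell from 26.05 ± 2.90 to 12.5 ± 2.27 FPKM (log2 change -1.01 ± 0.15) and BCOR from 13.7 ± 0.45 to 7.21 ± 0.35 FPKM (-0.87 ± 0.09), while CBX2, which reads the mark, rose from 4.97 ± 0.79 to 8.92 ± 0.79 FPKM (0.90 ± 0.15). BMI1 fell from 30.8 ± 2.40 to 24.7 ± 1.52 FPKM (-0.26 ± 0.09), a call lost without myoblast replicate 1 or myotube replicate 2 or 3 (highest adjusted p = 0.144 by edgeR). Among trithorax genes, which favour active clusters, 1 of 10 tested rose, 5 fell and 4 had no call (median -0.28). Only 10 of the 21 symbols of this list had an entry. Its H3K27 demethylase genes, KDM6A, KDM6B and UTY, had none, so they were not measured. PSIP1, which tethers the KMT2A complex, fell from 69.0 ± 2.77 to 35.0 ± 2.67 FPKM (-0.92 ± 0.08), as did DPY30 (-0.77 ± 0.15) and PAXIP1 (-0.60 ± 0.12). KMT2A itself fell from 7.47 ± 0.90 to 5.31 ± 0.81 FPKM (-0.44 ± 0.12), without a call when myotube replicate 2 was left out (adjusted p = 0.0570 by edgeR). ASH1L was the gene that rose (0.26 ± 0.08), without a call when myotube replicate 3 was left out, so that 0 then rose.

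Retinoic acid and the caudal-type factors start HOX expression in the embryo. Of this list 12 genes were tested, and 5 rose, 5 fell and 2 had no call (median log2 change -0.28). RARB, a retinoic acid receptor and itself a target, rose from 3.48 ± 0.26 to 8.43 ± 1.24 FPKM (1.33 ± 0.15), and its partner RXRG from 1.39 ± 0.36 to 7.44 ± 0.99 FPKM (2.47 ± 0.22). ALDH1A2, which makes retinoic acid, had no call at 4.97 ± 0.34 and 4.30 ± 1.47 FPKM. ZBTB16, a repressor of HOXD genes in the mouse limb, fell from 4.02 ± 0.58 to 0.367 ± 0.093 FPKM, a log2 change of -3.39 ± 0.23. CTCF, which sets boundaries within HOX clusters, fell from 28.3 ± 2.08 to 20.6 ± 1.35 FPKM (-0.40 ± 0.08). CDX1, GSX1 and PDX1 had 0 in every library.

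Other transcription factor genes also mark the position of cells in the limb and along the body. Of 18 tested, 13 rose, 2 fell and 3 had no call, where 30.0% of all genes tested rose and 29.1% fell, and the median log2 change of the list was 1.08. HAND2, of the posterior limb bud, rose from 8.90 ± 0.96 to 30.9 ± 3.996 FPKM (1.85 ± 0.15) and EN1, of its ventral side, from 6.58 ± 1.73 to 22.8 ± 3.80 FPKM (1.84 ± 0.22). TBX18 rose from 5.06 ± 0.29 to 15.7 ± 1.42 FPKM (1.70 ± 0.11) and SHOX, of the limb skeleton, from 17.0 ± 5.86 to 32.8 ± 5.29 FPKM (1.01 ± 0.25). The hindlimb gene TBX4 rose from 1.20 ± 0.25 to 3.21 ± 0.40 FPKM. The forelimb gene TBX5 stood lower in both states, and its mean was also higher in myotubes (0.0855 ± 0.0475 and 0.550 ± 0.218 FPKM). PITX1 and TBX15, also on the list, had no entry, and which limb the cells came from was not tested. The genes that fell were MEOX1, from 5.11 ± 0.39 to 1.11 ± 0.19 FPKM (-2.14 ± 0.18), and TCF15 (-1.09 ± 0.23), both of the somites from which body muscle arises. MEOX2, a relative of MEOX1, rose from 16.8 ± 1.01 to 24.3 ± 2.14 FPKM (0.58 ± 0.10), while TBX3 had no call at 26.6 ± 1.93 against 22.7 ± 3.02 FPKM.

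**Figure D4:**
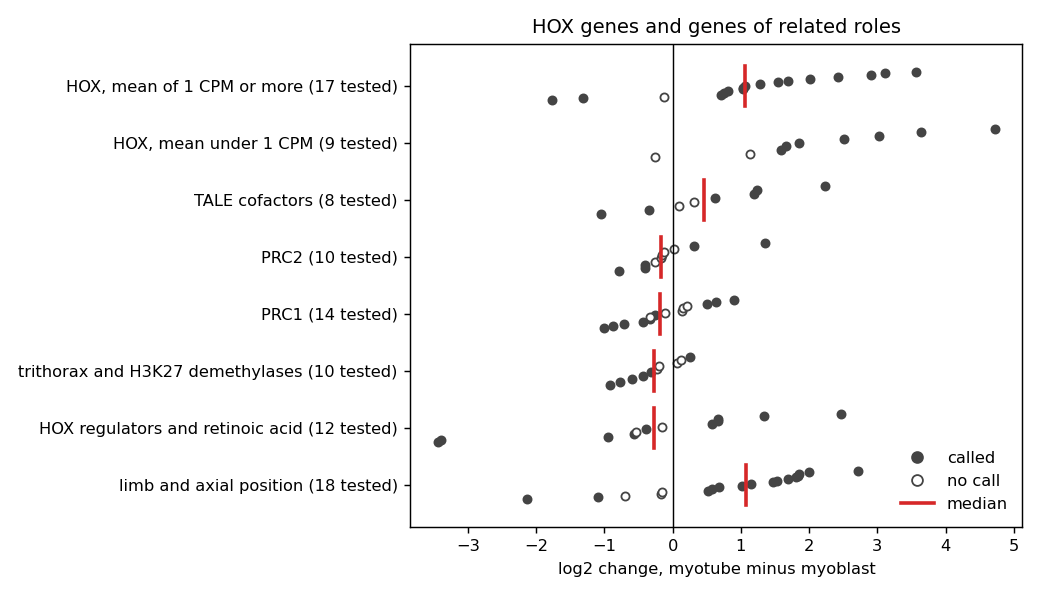
Log2 change (myotube minus myoblast) of each tested gene, HOX genes split at a mean of 1 CPM and genes of 6 related lists, with filled points for called genes and a red bar at the median; the HOX genes under 1 CPM have no median bar. The median is 1.06 for the 17 HOX genes at 1 CPM or more and 1.08 for limb and axial genes, and lies under 0 for the chromatin lists. The related lists are not split by level, so their medians and that of the HOX genes cover unlike sets.

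Among markers of other cell types, those of fibroblasts and smooth muscle mostly rose, while most other lists had lower sums in myotubes. Among fibroblast markers, 8 of 12 rose and POSTN alone fell in this fit. Their summed level was 1308 to 2139 FPKM in myoblast libraries and 4538 to 5204 FPKM in myotube libraries. Of 5 smooth muscle markers 4 rose and 1 fell, with sums of 259 to 351 and 1117 to 1508 FPKM. COL1A2, a fibrillar collagen gene, rose from 649 to 2408 FPKM and TAGLN from 222 to 1179 FPKM. Markers of endothelium (5.07 to 6.80 and 1.38 to 1.86 FPKM) and cartilage (3.52 to 4.09 and 1.62 to 2.20 FPKM) had lower sums in myotubes. In these 2 lists KDR, CDH5, TEK, TIE1, VWF, ACAN, MATN1 and COL9A1 had a mean under 1 FPKM. Sums were also lower for nerve and Schwann cells (14.3 to 17.6 and 8.13 to 9.61 FPKM), epithelium (36.6 to 87.0 and 16.2 to 17.5 FPKM) and red cells (60.7 to 107 and 23.6 to 25.6 FPKM). Leukocyte markers overlapped through myoblast replicate 3, with 50.9, 56.8 and 103 FPKM in myoblasts and 95.9 to 99.6 FPKM in myotubes. Of 7 tested leukocyte genes, 3 rose, 1 fell and 3 had no call. Myoblast replicate 3 had the lowest fibroblast sum, 1308 FPKM, while its HOX sum of 94.9 FPKM lay between those of the other myoblast libraries. The part of fibroblast-like or smooth-muscle-like cells in the HOX result was not tested.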

How the data were processed

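RNA-seq of 3 myoblast and 3 myotube libraries was used, grouped by the developmental stage in the labels and numbered by title. HISAT and HTSeq are named in the submitters' processing notes. No source used here gives their versions, the build, the annotation, a filter or how strand was treated. The deposited tables give, per the file headers, the raw read count per gene and the FPKM the authors computed. The deposited FPKM equalled count per length and total within 1% for 66.6% of all values and for 21 HOX genes; the 8 other HOX genes with reads imply a shorter length than listed, which affects levels between genes and not changes. The 2 lines per table that name no gene were left out.

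Counts were tested with edgeR 4.0.16 in R 4.3.3 (quasi-likelihood test, TMM scaling, filterByExpr with a minimum count of 10 and a minimum total of 15, no block, two-sided, Benjamini-Hochberg over 15959 genes, called under 0.05). Log2 changes are myotube minus myoblast. SE is the change divided by the square root of F, an approximation. Means are of FPKM with SD (n = 3). Total counts of 21893152 to 27546527 make 1 read of a 1 kb gene worth 0.0363 to 0.0457 FPKM.

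The members, lists and rules were chosen with earlier results of these data known, so no list is independent evidence. Lists held TALE cofactors, PRC2, PRC1, trithorax and H3K27 demethylase genes, HOX regulators with retinoic acid genes, limb and axial genes, and markers of 9 cell types. HOX entries are named, except that some results are not reported here; full statistics go to the 3 highest, the 4 largest rises and falls (only 2 fell) and the highest of each cluster; from each list up to 3 called genes of the largest change with a mean of at least 2 FPKM, and EZH2, BMI1, KMT2A, MEIS1, MEIS2, PBX3 and CTCF. Limb genes needed a mean of 1 FPKM, apart from TBX5, which lay under it. Other list, marker and neighbouring genes were named after their values were seen. MEIS2 is the entry MEIS2A.1, matched by a synonym in a RefSeq table. HOXA3, HOXA9, HOXB2, HOXB3, HOXC12 and HOXD1, in that table, had no entry of that name and are not analysed under those names. Whether entries without a symbol inside the clusters are among them was not tested. One such entry, ENSGALG00000028983, lies between HOXA7 and HOXA10, where HOXA9 would lie by its number. Alternatives were DESeq2 1.42.0, DESeq2 size factors, library totals only, no filter, at least 50 counts in 3 libraries, limma 3.58.1 on log2(FPKM + 1) and log2(FPKM + 0.1), a threshold of 0.01, a replicate block and leaving out each library.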

Additional observations from a re-analysis of the deposited data

How the results depend on the processing

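HOX calls numbered 21 or 22 higher and 2 lower under DESeq2, DESeq2 size factors, library totals only, no filter, both limma fits and an adjusted p under 0.01, and each of the 6 fits without 1 library also gave 21 to 22 higher and 2 lower. With at least 50 counts in 3 libraries fewer genes were tested, and 12 HOX genes were called higher and 1 lower. No share over all genes was taken for that fit. HOXB4, HOXB5, HOXB6, HOXD3 and HOXD9 to HOXD13, higher in the fit reported here, did not reach that filter and were not tested in it. Of 352 log2 changes of HOX genes under alternatives, 350 kept direction and side of the threshold. Of 648 log2 changes of list genes, 593 kept both, 45 (14 genes) lost a call, 6 gained one and 4 turned sign. Log2 changes without a call that turned sign were HOXC11 (-0.53 to 0.098 without 1 library, turned without myoblast replicate 2), PBX4 (-0.052 to 0.19) and ALDH1A2 (-0.38 to 0.078), both turned without myotube replicate 1, and EED (-0.085 to 0.085, turned without myoblast replicate 3, and -0.024 under limma on log2(FPKM + 1)). The cause was not tested. Under limma on log2(FPKM + 1), changes of low genes are smaller by construction (HOXD12 1.04), PRC2 had 1 higher and 1 lower, and trithorax genes had 0 higher. Leaving out 1 library gave 1 to 2 TALE genes lower (1 without myoblast replicates 1 or 3 or myotube replicates 2 or 3), 1 to 2 PRC2 genes higher, 1 to 5 PRC2 genes lower (5 without myoblast replicate 3) and 0 to 1 trithorax genes higher (0 without myotube replicate 3). The log2 ratio of paralogue 12, HOXD12 alone, ran from 4.14 to 5.19 without 1 library. That of paralogue 13 was -0.70 in FPKM and -0.0825 in CPM, which does not divide by length. With a replicate block, HOX calls were 21 higher and 2 lower. Same-numbered libraries had correlations of 0.047, 0.0596 and -0.0567, and differently numbered ones -0.151 to 0.113. These are of deviations from means of only 3 libraries, so they cannot decide whether the numbers pair the libraries. Depth limits the 6 untested genes and the size of the HOXD10 and HOXD12 changes.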
